A study of Mus musculus with 6 samples.

Results

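The genes described here are 8 mouse caspase genes, Casp1, Casp2, Casp4, Casp6, Casp8, Casp9, Casp12 and Casp14, out of 21911 protein-coding genes on the chromosomes examined. They were chosen by name, and each was described by the peaks of trimethylation of histone H3 at lysine 4 (H3K4me3) that lay within 1 kb of any of its annotated transcript starts. The peaks came from 6 lists, each made by ChIP-Seq, in which MNase-digested chromatin from crosslinked cells was pulled down with an antibody to the mark. The cells were murine striatal progenitors that proliferate under conditional immortalisation, from C57BL/6 animals per the labels. The Q7SST list came from the wild type line, labelled STHdh7, and the Q111SST list from the STHdhQ111 line, whose huntingtin gene carries the mutant knock-in on both copies. Both were kept for 24 h in serum-free medium with vehicle. The other 4 lists came from the mutant line treated with 10 uM of a compound over the same 24 h, namely cyproheptadine, loxapine, diacylglycerol kinase inhibitor II (DKI) or meclizine. The study places cyproheptadine and loxapine in Group A, and DKI and meclizine in Group B. Each genotype was 1 cell line, so genotype and line cannot be told apart. Every condition had 1 list, so no difference between lists had a replicate check and none was tested.

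Caspases are cysteine proteases that cut their substrates after aspartate. Initiator caspases become active when they are brought together on a platform, and then cut effector caspases, which cut the proteins of the dying cell, while the inflammatory caspases act in the processing of cytokines and in lytic cell death. H3K4me3 is a mark of the nucleosomes around the start of genes that are active or ready for transcription, and it is most common at promoters rich in CpG dinucleotides. Casp6 and other caspases are known to cut huntingtin, and cell death after serum withdrawal is the setting in which these mutant cells are studied.

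The number of peaks ran from 30758 (DKI) to 45564 (loxapine). The whole-number score of each peak began at 10 in all 6 lists, but its scale was not given in the sources used here and the sequencing depth was unknown. A peak no more than 1 kb from a transcript start made its gene a marked one. Strength is given as a percentile, the place of the highest-scoring such peak in the ranking of the whole list. A weaker mark in all cells and a mark in fewer cells cannot be told apart in bulk chromatin. The median percentile of marked coding genes ran from 76.3 (DKI) to 83.0 (loxapine). Neural progenitor markers were partly marked, with Vim and Notch1 in all 6 lists, Nes in all but cyproheptadine and Sox2 in all but Q7SST. Of 10 markers of striatal neurons or their precursors, 7 were marked in Q7SST, 5 in Q111SST and 4 or 5 with each compound. The background was 55.4% to 59.9% of all coding genes. Foxp1, Dlx1, Dlx2 and Meis2 were marked in all 6 lists, and Isl1 and the dopamine receptor genes Drd1 and Drd2 in none.

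The sequence before the start differed widely among the caspase genes, and the 150 bases upstream of 6 starts are shown because they span that range. All lie on the plus strand of GRCm38.p6 (mm10), are written 5′ to 3′ and stop at the base before the transcript start. Each CpG is in capitals.
Casp9, chr4:141793462-141793611: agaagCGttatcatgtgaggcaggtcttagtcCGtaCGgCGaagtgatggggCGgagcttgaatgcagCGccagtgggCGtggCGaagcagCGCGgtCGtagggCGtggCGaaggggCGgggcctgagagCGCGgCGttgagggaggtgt
Casp8, first GENCODE start, chr1:58795224-58795373: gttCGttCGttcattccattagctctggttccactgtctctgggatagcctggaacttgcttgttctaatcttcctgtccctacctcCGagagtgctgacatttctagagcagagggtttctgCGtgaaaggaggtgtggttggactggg
Casp8, RefSeq start, chr1:58802352-58802501: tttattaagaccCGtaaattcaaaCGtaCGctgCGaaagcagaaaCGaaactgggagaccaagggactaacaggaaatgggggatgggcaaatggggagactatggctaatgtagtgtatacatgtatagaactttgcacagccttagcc
Casp12, chr9:5345280-5345429: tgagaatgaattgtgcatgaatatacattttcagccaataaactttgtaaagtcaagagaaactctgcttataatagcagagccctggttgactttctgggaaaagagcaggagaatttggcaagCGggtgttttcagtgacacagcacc
Casp4, chr9:5308678-5308827: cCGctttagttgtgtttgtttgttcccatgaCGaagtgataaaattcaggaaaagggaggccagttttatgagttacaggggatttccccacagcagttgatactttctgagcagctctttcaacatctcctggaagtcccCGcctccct
Casp1, chr9:5298367-5298516: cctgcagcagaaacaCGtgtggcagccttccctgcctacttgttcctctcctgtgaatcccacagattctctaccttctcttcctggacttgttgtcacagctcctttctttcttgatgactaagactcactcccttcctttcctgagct
Casp9 held 17 CpG in this stretch, Casp8 held 4 before its first start in the GENCODE annotation and 5 before the start that RefSeq gives, Casp4 held 3, and Casp12 and Casp1 held 1 each.

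Promoter windows of 300 bases, from 250 before to 50 after the start, were read at the first GENCODE start of each gene and set beside the coding promoters of the RefSeq table of the same build, in which all 8 genes were found. The apoptotic genes Casp9, Casp2 and Casp6 held 28, 26 and 17 CpG, more than 80.6%, 76.7% and 55.9% of coding promoters. Casp14 held 9 and Casp8 6. The 3 inflammatory genes of chromosome 9 held the fewest at these starts, with 3 in Casp1, 3 in Casp4 and 1 in Casp12, a count that exceeded only 4.4% of coding promoters. At the starts that RefSeq gives, Casp6 held 16, Casp8 5, Casp4 5 and Casp12 3, and the other genes held as many as before. Across coding promoters, CpG count and marking went together. Among promoters with 0 to 4 CpG, 9.98% were marked in Q111SST, against 35.1% of those with 5 to 9, 75.8% of those with 10 to 19 and 89.2% of those with at least 20. Casp12, of the class least often marked, was marked in Q111SST, and Casp1, of the same class, was unmarked. Casp4, marked there, fell in the lowest class at its first GENCODE start and in the class of 5 to 9 at its RefSeq starts.

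**Figure D1:**
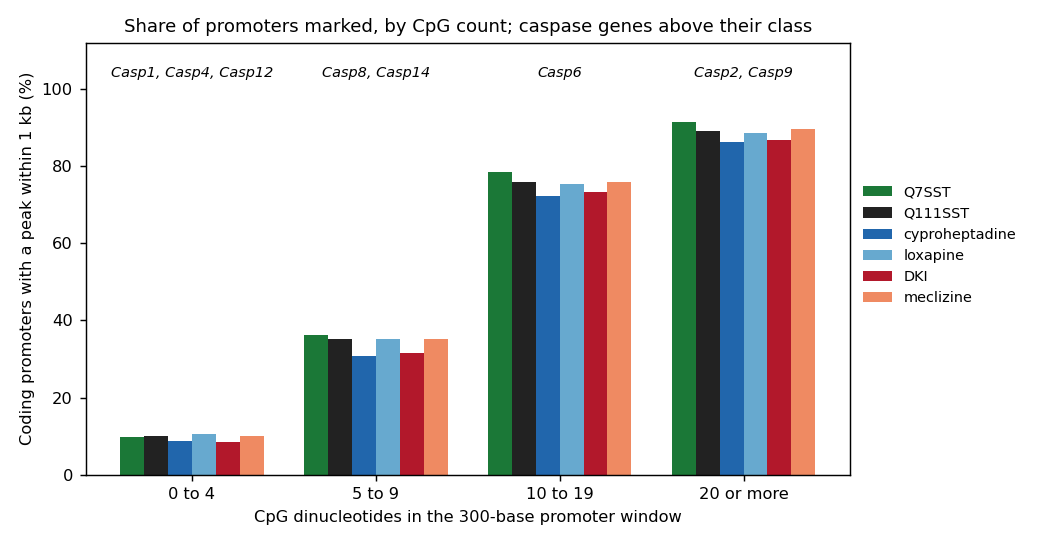
CpG dinucleotides in the 300-base promoter window (x axis, 4 classes) against the percentage of coding promoters marked in each of the 6 lists (y axis, %), with the caspase genes placed in their class by the first GENCODE start. In Q111SST the share rose from 9.98% with 0 to 4 CpG to 89.2% with at least 20, and the chromosome 9 caspase genes fell in the lowest class at these starts.

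Short motifs were searched in the same windows on both strands, and a match is only a description of the letters. The GC box GGGCGG occurred in 47.8% of coding promoters, and was found 4 times in Casp9, 3 times in Casp6, 2 times in Casp2 and in none of the other 5 genes. TATAAA, present in 12.1% of coding promoters, was found in no caspase window, nor was the interferon-stimulated response element core, present in 3.42%. TTCNNNGAA, present in 7.74%, was found 2 times in Casp12 and in no other member. After the sequences had been read, the letters GGGATTTCC were also searched, and among the members they were found in Casp4 only, from 71 to 63 bases before its first start. They occurred in 0.377% of coding promoters and in none of the windows found for the caspase partner genes.

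Casp2, Casp6, Casp8, Casp9 and Casp12 were marked in all 6 lists, that is 5 of 8 members beside 53.5% of all coding genes. No member was unmarked throughout. Casp4 was marked in the 5 mutant lists and not in Q7SST, a pattern shared by 0.936% of coding genes. Casp1 was marked in Q7SST alone, as were 2.78% of coding genes, and Casp14 was marked in Q7SST, Q111SST and loxapine. By list, 7 members were marked in Q7SST (background 59.9%), 7 in Q111SST (58.4%), 6 in cyproheptadine (55.4%), 7 in loxapine (58.1%), 6 in DKI (55.8%) and 6 in meclizine (58.6%).

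**Figure D2:**
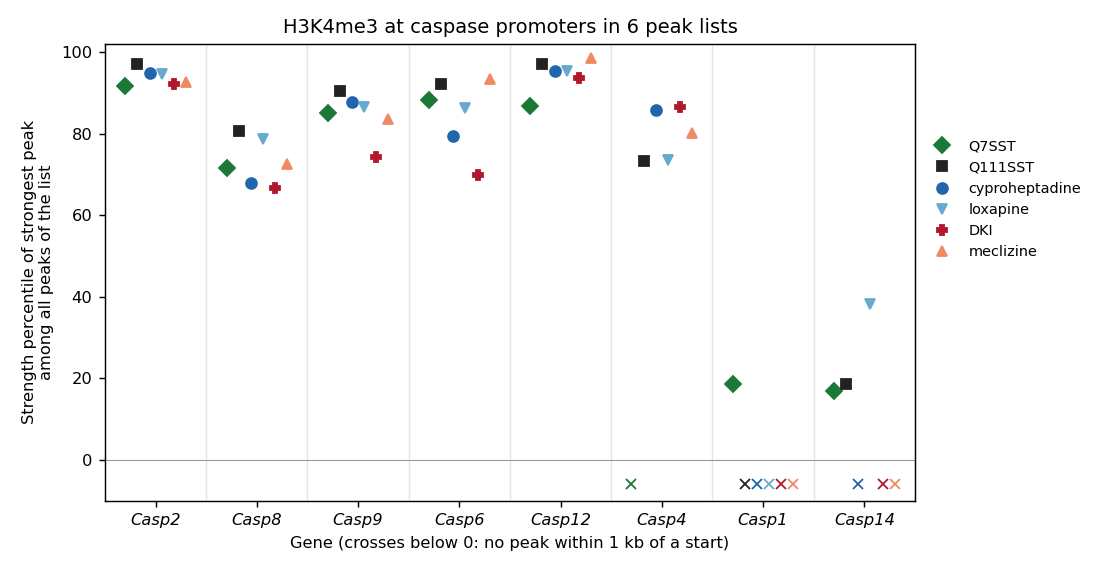
Place of the strongest peak near each caspase gene (x axis) in the ranking of its list (y axis, percentile), 1 point for each of the 6 lists, with unmarked genes set below 0. Casp2 or Casp12 was the highest in each list, Casp4 had no point for Q7SST, and Casp1 had a point for Q7SST alone.

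Among the initiators, Casp2, whose product is activated on the PIDDosome, carried the steadiest strong mark. Its strongest peak stood at percentile 91.8 in Q7SST and 97.0 in Q111SST, and at 94.8 for cyproheptadine, 94.7 for loxapine, 92.8 for meclizine and 92.1 for DKI. The 6 values spanned 5.16 points, with Q111SST the highest and Q7SST the lowest. The gene lies at chr6:42264985-42282508 on the plus strand and has 10 annotated starts. In 5 lists the peak covered the first of these, beginning 485 to 545 bp before it, while in Q111SST the strongest peak began 68 bp after it. Peak width ran from 1868 bp in Q111SST to 2521 bp with loxapine.

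Casp8, the initiator recruited by death receptors through the adaptor Fadd, had the lowest percentile of the 5 genes marked everywhere in each of the 6 lists. It stood at 71.5 in Q7SST and 80.7 in Q111SST, and at 67.8 for cyproheptadine, 78.7 for loxapine, 72.6 for meclizine and 66.8 for DKI. Q111SST and loxapine were the highest, and the span was 13.9 points. The mark was broad, from 2263 bp (DKI) to 2604 bp (loxapine), and its width differed by only 1.15 times between lists. The gene lies at chr1:58795374-58847503 on the plus strand, and its 4 annotated starts fall in 2 clusters. The upstream starts at 58795374 and 58795477 were marked in all 6 lists, and the downstream starts at 58802502 and 58802653 in 0. The downstream start at 58802502 is the one that RefSeq gives, so the mark at Casp8 lay over the upstream sequence printed above and not over the RefSeq one. In all lists the peak reached from 233 to 395 bp before the first start to between 2004 and 2208 bp after it.

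Casp9, the initiator that assembles with Apaf1 and cytochrome c in the apoptosome, lies at chr4:141793612-141815976 on the plus strand. It stood at 85.0 in Q7SST and 90.5 in Q111SST, and at 87.8 for cyproheptadine, 86.5 for loxapine, 83.6 for meclizine and 74.3 for DKI. DKI was the low value of a 16.2-point span, and without it the other 5 lists lay between 83.6 and 90.5. Width was the least variable of any member, from 1608 bp (cyproheptadine) to 1835 bp (loxapine), 1.14 times.

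Casp6, the effector that cuts nuclear lamin and huntingtin, lies at chr3:129901425-129914103 on the plus strand and varied most in strength among the genes marked everywhere. It stood at 88.3 in Q7SST and 92.3 in Q111SST, and at 79.5 for cyproheptadine, 86.3 for loxapine, 93.5 for meclizine and 69.8 for DKI. Meclizine was slightly above the vehicle list and DKI 23.7 points below meclizine. With cyproheptadine the peak was also the narrowest, 1022 bp, and it began 27 bp after the first start, whereas in the other lists it began 122 to 290 bp before it. Loxapine had the widest peak, 1384 bp.

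**Figure D3:**
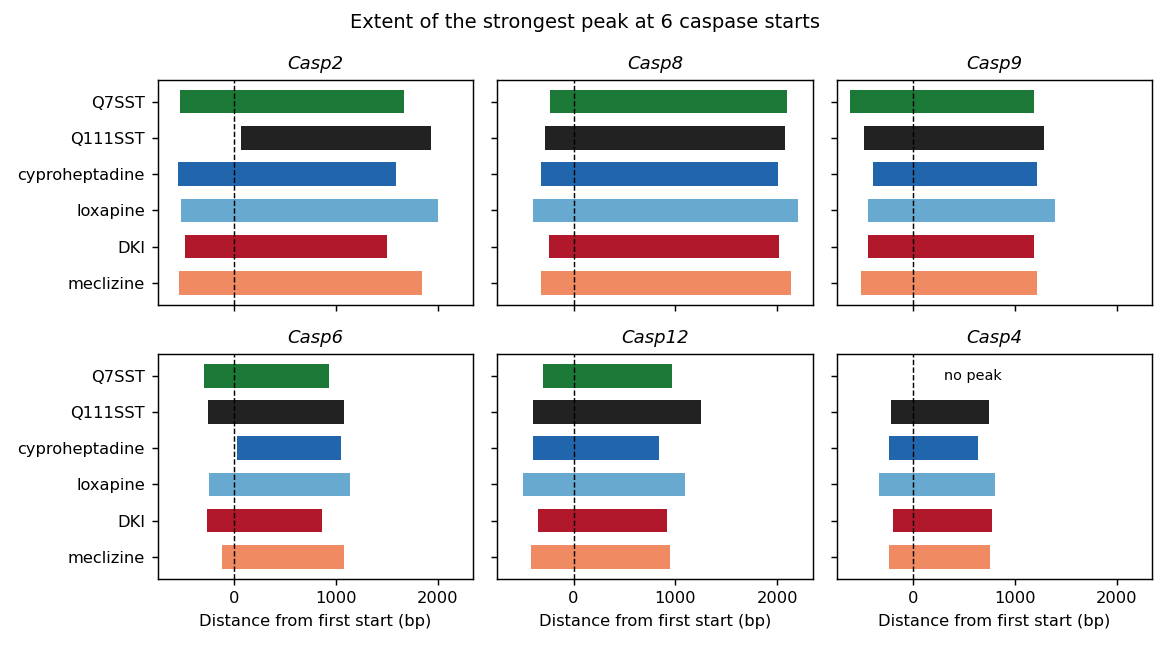
Extent of the strongest peak at 6 caspase genes in each list, as distance from the first annotated start (x axis, bp, positive into the gene, dashed line at the start). The peak covered the start in every list that had it except for Casp2 in Q111SST, which began at 68 bp, and Casp6 with cyproheptadine, which began at 27 bp.

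Casp1, Casp4 and Casp12 stand side by side on the plus strand of chromosome 9, at chr9:5298517-5307265, chr9:5308828-5336783 and chr9:5345430-5373032, with gaps of 1562 and 8646 bp between them. Their products belong to the inflammatory branch of the family. Casp1 cuts pro-interleukin-1β in inflammasomes, Casp4 (caspase-11 in mouse) responds to bacterial lipopolysaccharide in the cytosol and cuts gasdermin D, and Casp12 is a relative found at the endoplasmic reticulum. The neighbours had different marks.

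Casp12 was strongly marked in every list, at 86.8 in Q7SST and 97.0 in Q111SST, and at 95.3 for cyproheptadine, 95.4 for loxapine, 98.5 for meclizine and 93.7 for DKI. The wild type list was the lowest, as at Casp2, and all 5 mutant lists, from 1 cell line, lay above it. Of the coding genes marked in both Q7SST and Q111SST, 12.5% had a lower change than Casp12. The share of coding genes with Q7SST below all 5 mutant lists was not counted. The peak ran from 1240 bp (cyproheptadine) to 1646 bp (Q111SST) and covered the first start in all 6 lists, beginning 303 to 495 bp before it. With 1 CpG in the 150 bases upstream, as few as Casp1, Casp12 had one of the strongest caspase marks.

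Casp4 had no peak within 1 kb of a start in Q7SST. In the mutant line it stood at 73.2 under vehicle (Q111SST), and at 85.7 for cyproheptadine, 73.6 for loxapine, 80.1 for meclizine and 86.6 for DKI. Cyproheptadine and DKI, 1 compound of each group, gave the highest values, and loxapine was close to vehicle. The Q111SST value was below the median of marked coding genes in that list, 82.6. The deposited scores of these peaks, whose scale may differ between lists, ran from 84 to 121, above the minimum of 10 in each list. The peak was compact, from 878 bp (cyproheptadine) to 1140 bp (loxapine), and in all 5 lists it lay over the first start, from 200 to 332 bp before it to 638 to 807 bp after it. In Q111SST it occupied chr9:5308607-5309576, of which 87 bp were exonic. The nearest Q7SST peak was 2648 bp from the closest annotated start of Casp4. That peak was part of an intronic region at chr9:5311040-5312256 that carried a peak in all 6 lists, at percentiles 38.9, 51.5, 46.5, 28.9, 23.4 and 35.9 in the order Q7SST, Q111SST, cyproheptadine, loxapine, DKI and meclizine. The absence of a Casp4 peak from Q7SST was thus at the promoter, while the mark inside the gene was present in both lines.

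Among the 205 coding genes marked in the 5 mutant lists and not in Q7SST, Casp4 ranked 31 by its mean percentile, 79.8, against a median of 52.2 over these genes. By its lowest value, 73.2, it ranked 28. The Q7SST list held 38392 peaks and the DKI list, which had the Casp4 peak, 30758, and the part of depth in the missing peak was not tested.

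Casp1 had a single weak peak, in Q7SST, at percentile 18.6. It was 295 bp wide, at chr9:5298593-5298887, with a score of 25, and lay 76 to 370 bp after the first start, 131 bp in an exon and 164 bp in an intron. In the mutant lists the nearest peak was 9979 to 10111 bp from a Casp1 start. Among the 610 coding genes marked in Q7SST and in none of the mutant lists, Casp1 ranked 442 by percentile, below their median of 32.6. The Casp1 peak was in 0 lists when a score minimum was set, when the lists were cut to equal size and when a peak had to lie over the start.

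**Figure D4:**
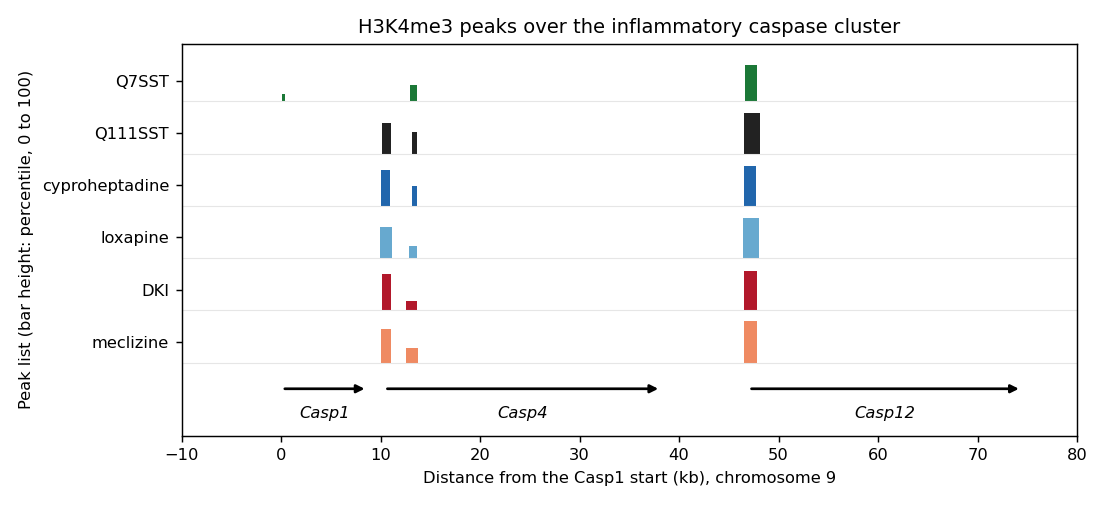
Peaks across the Casp1, Casp4 and Casp12 genes in the 6 lists (1 row each), as distance from the Casp1 start (x axis, kb), with bar height showing percentile and arrows below showing the genes. The Casp12 promoter peak was in all rows, the Casp4 promoter peak in the 5 mutant rows, the peak inside Casp4 in all rows and the Casp1 peak in the Q7SST row.

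Casp14, the caspase of the cornifying epidermis, was, like Casp1, a member whose peak never lay over a start. The gene lies at chr10:78711991-78718294 on the minus strand with starts at 78718294 and 78717406, and it was marked only through the latter. Its peaks were intronic, at percentile 16.9 in Q7SST, 18.7 in Q111SST and 38.3 with loxapine, with widths of 588, 278 and 545 bp. In the other lists the nearest peak was 3549 bp (cyproheptadine), 3898 bp (DKI) and 3467 bp (meclizine) away. Of 6 keratinocyte markers, Krt10 was marked in all lists, and Krt1, Krt5, Krt14, Lor and Flg in none.

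No protein-coding gene shared the strongest peak of a caspase gene. Cflar, which encodes the Casp8-like inhibitor of death receptor signalling, lies 36489 bp from Casp8 and was marked in all 6 lists. Dnajc16, 2680 bp from Casp9, was marked in all 6, and Tmem139, 429 bp from Casp2, in none.

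Against the vehicle-treated mutant line, few calls of presence differed. All 5 comparisons use the same Q111SST list and are therefore not independent of each other. In Q7SST 1 member was gained (Casp1, background 3.6%) and 1 lost (Casp4, background 2.08%). Cyproheptadine gained 0 (0.306%) and lost 1 (3.33%), loxapine gained 0 (1.01%) and lost 0 (1.24%), DKI gained 0 (0.269%) and lost 1 (2.88%), and meclizine gained 0 (1.02%) and lost 1 (0.799%). The gene lost with the 3 compounds was Casp14 each time, whose Q111SST peak was weak.

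A difference of at least 10 percentile points was used to describe strength. Percentiles are ranks within lists of unequal length, and some of these counts moved when the lists were cut to equal size or ranked among marked coding promoters only. In Q7SST 0 of 6 members marked in both lists were higher (background 8.85%) and 1 was lower (13%), Casp12 at -10.2 points, but 4 were lower by the ranking among marked coding promoters. With cyproheptadine 1 of 6 was higher (3.48%), Casp4 at +12.5 points, and 2 were lower (25.9%), Casp8 at -12.9 and Casp6 at -12.7, with Casp8 at -9.94 at equal size. With DKI 1 of 6 was higher (3.55%), Casp4 at +13.4, and 3 were lower (38.8%), Casp6 at -22.4, Casp9 at -16.2 and Casp8 at -13.9, with Casp8 at -7.83 at equal size. DKI was also the list where lower values were most common over all coding genes. With loxapine 1 of 7 was higher (7.1%), Casp14 at +19.7, and 0 were lower (9.41%). The Casp14 difference was +3.99 among marked coding promoters, where 0 were higher and 2 lower, and could not be computed at equal size. With meclizine 0 of 6 were higher (4.18%) and 0 lower (10%), with Casp8 at -8.11, Casp9 at -6.92 and Casp4 at +6.88. Among marked coding promoters 1 was higher, Casp4 at +19.4, and 3 were lower, Casp9 at -14.3, Casp8 at -11.2 and Casp2 at -10.4.

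The sizes of the called differences depended on which peaks were ranked. Ranking fewer peaks can stretch the percentile scale, but not every difference grew. Casp4 with DKI was +21.8 at equal size, +29.6 under the score minimum and +40.8 among marked coding promoters, and Casp4 with cyproheptadine was +19.6, +24.5 and +34.4. Casp6 with DKI was -44.4 under the score minimum and -38.2 among marked coding promoters, and Casp6 with cyproheptadine was -29.6 and -27.2. Casp12 in Q7SST was -18.6 and -26.1, and Casp9 with DKI -31.7 and -25.2. Casp8 under the score minimum was -31.6 with cyproheptadine and -26.1 with DKI. Other differences became smaller in size. At equal size this was so for Casp6, Casp8 (-7.83) and Casp9 with DKI, and for Casp6 and Casp8 (-9.94) with cyproheptadine. Among marked coding promoters it was so for Casp8 with DKI and for Casp14 with loxapine (+3.99). All these values kept the direction of those above.

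With most compounds Casp4 stood higher against vehicle than most genes did. Of all coding genes marked in both lists, 97.7% had a lower change than Casp4 with cyproheptadine, 98.0% with DKI and 92.8% with meclizine, but 56.5% with loxapine. Casp6 stood farthest below vehicle with DKI, where 11.5% of coding genes had a lower change. The median change over the marked members was -5.31 points in Q7SST (all coding genes -1.04), -2.39 with cyproheptadine (-3.74), -2.0 with loxapine (-0.352), -1.48 with meclizine (-1.54) and -9.39 with DKI (-6.57).

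**Figure D5:**
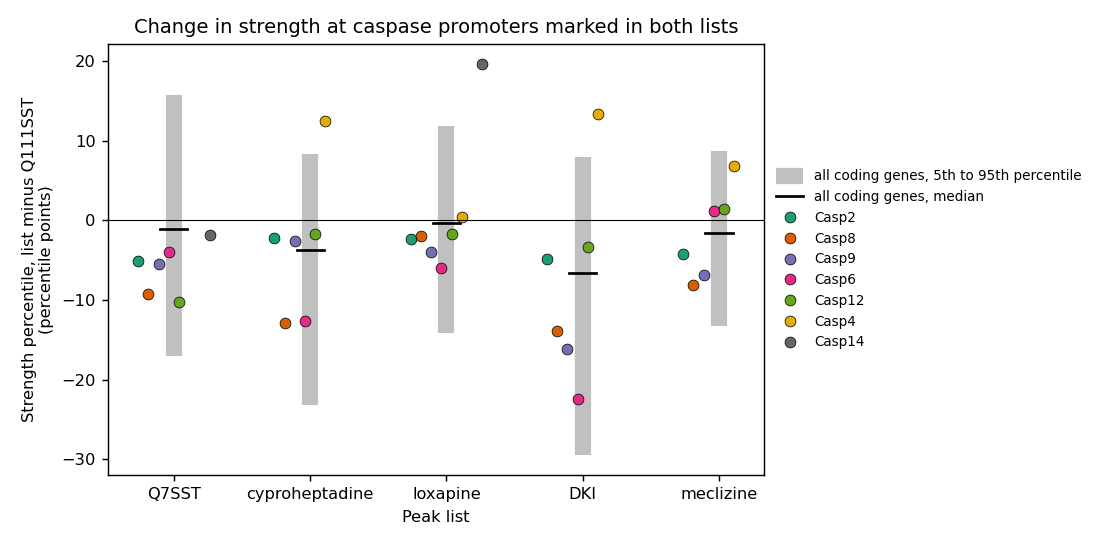
Difference in percentile from the Q111SST list (y axis, points) for each caspase gene marked in both lists, by comparison (x axis), beside the median and the 5th to 95th percentile range of all coding genes. Casp4 lay above the median of all genes with every compound, +13.4 points with DKI, and Casp6 lay lowest with DKI, -22.4 points.

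The order of the compound groups was counted after the values had been seen. Both Group A lists stood above both Group B lists at 2 of the 6 members marked in all 4, Casp2 and Casp9, beside 22.9% of coding genes. At 0 members were they below both, beside 10.3%. For Casp4, Casp6, Casp8 and Casp12 the values of the groups overlapped, and at Casp6 and Casp12 both Group A values lay between the Group B values. Casp6, for example, was at 93.5 with meclizine and at 69.8 with DKI, both of Group B.

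Peak widths were similar between lists. A ratio past 1.5 to the Q111SST width, in either direction, was found for 1 member in Q7SST (background 12.7%) and 1 with loxapine (11%), Casp14 in both. It was found for 0 members with cyproheptadine (17%), DKI (20.1%) and meclizine (8.41%). Leaving Casp14 aside, the widest and narrowest peaks of a gene differed by 1.14 times (Casp9) to 1.35 times (Casp2 and Casp6).

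The genes that act with caspases were examined as a list of 31 partners. Of these, 23 were marked in all 6 lists, beside 53.5% of all coding genes, and 6 in none. All 7 death receptors and adaptors upstream of Casp8, both PIDDosome partners of Casp2, all 4 partners of Casp9 in the apoptosome and at mitochondria, and all 4 apoptotic substrates were marked everywhere. Fas, a death receptor, ran from 66.8 with DKI to 92.4 in Q111SST. Apaf1, the scaffold on which Casp9 assembles, was at 89.8 in Q7SST, 81.6 in Q111SST and 94.4 with loxapine. Pidd1, the scaffold of the PIDDosome, stood at 73.4 in Q7SST and 58.3 in Q111SST, and between 34.8 and 55.5 with the compounds. The peaks of Tradd, Ripk1, Apaf1, Diablo, Htra2 and Dffb also lay within 1 kb of a start of another protein-coding gene in all 6 lists, Ikbip in the case of Apaf1.

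Of the 5 inflammasome genes and the 4 inflammatory substrates, 2 were marked in all 6 lists, beside 53.5% of all coding genes. The sensors Nlrp3 and Nlrc4, the adaptor Pycard, Mefv, Il1a and Il1b were marked in no list. They include the main platform genes of Casp1 and the genes of the interleukin-1 cytokines. Il18, a cytokine that Casp1 cuts, and Gsdmd, which encodes the pore-forming substrate of Casp1 and Casp4, were marked in all 6. The Il18 peak, from 83.4 in Q111SST to 97.1 with meclizine, also lay within 1 kb of a start of Bco2, so the mark cannot be assigned to either gene. The DNA sensor Aim2 had the pattern of Casp4, with the nearest Q7SST peak 281419 bp away and percentiles of 74.3, 54.2, 72.6, 52.6 and 64.0 in Q111SST, cyproheptadine, loxapine, DKI and meclizine.

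Of the 5 inhibitors, Xiap, Birc2, Birc5 and Birc6 were marked in all 6 lists. Birc3, an inhibitor of apoptosis that also lies on chromosome 9, had the pattern of Casp4, with 83.4 in Q111SST, 72.6 with cyproheptadine, 83.3 with loxapine, 82.2 with meclizine and 79.6 with DKI, a rank of 29 among the 205 genes, and its nearest Q7SST peak 21695 bp away. Of 7 microglia and macrophage markers, Aif1 alone was marked, at 6.14 in Q7SST and 4.91 in Q111SST, and Ptprc, Cx3cr1, Csf1r, Itgam, Tyrobp and Cd68 had no peak within 1 kb of a start in any list.

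Relative to Q111SST, 0 of 31 partners were gained in any list (background 0.269% to 3.6%), 2 were lost in Q7SST (Birc3 and Aim2, background 2.08%) and 0 with any compound (background 0.799% to 3.33%). Of the 25 partners marked in both lists, 10 were lower by at least 10 points with DKI (38.8% of all coding genes), 8 with cyproheptadine (25.9%), 3 with loxapine (9.41%) and 2 with meclizine (10%), shares near those of all coding genes. None was higher by that amount with DKI or cyproheptadine, against 3 with loxapine (7.1%) and 2 with meclizine (4.18%), where the background with DKI and cyproheptadine was 3.55% and 3.48%. In Q7SST 2 of 23 were higher (8.85%) and 1 lower (13%).

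For each caspase gene the 2 coding genes nearest to it in percentile over the 6 lists were listed, by the mean absolute difference, with an unmarked list counted as 0. Casp2 was closest to D230025D16Rik (0.605 points) and Eif2b1 (0.722), Casp12 to Zfp300 (1.13) and Slc25a51 (1.15), and Casp9 to Ip6k2 (1.06) and Gfod2 (1.23). Casp8 was closest to Stk38 (1.43) and Insig2 (1.62), and Casp6 to Med1 (1.45) and Rbm45 (1.96). Casp4 had the least similar neighbours, Abhd15 (2.71) and Tmem71 (4.58). Only 205 coding genes were marked in the same lists as Casp4, against 11713 marked in all 6, so fewer close matches were available to it. Casp14 was closest to Gnat1 (0.768) and Kng2 (1.31). For Casp1 several genes tied at 0, Acot3 and Adamts15 being the first of these.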

How the data were processed

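The deposited files were 6 peak lists, 1 per condition. The study sequenced single-end reads of MNase-digested, H3K4me3-precipitated chromatin. The submitters' processing notes name Trimmomatic 0.36, Bowtie2, SAMtools 1.3, MACS2 and mm10. Whether replicates were pooled, the peak threshold and the scale of the score are not given in the sources used here. The deposited score of each peak, a whole number assigned by the authors, was used to rank peaks within a list (mid-rank percentile), since its scale and the depth may differ between lists. A common score minimum was tried only as an alternative. The authors' coordinates were converted to count from 1, and peaks lay within chromosome ends of GRCm38. Starts came from GENCODE M21, for 21911 protein-coding genes. A gene was marked by a peak within 1 kb of any start, and its strongest such peak gave its percentile and width. Differences of 10 points and width ratios past 1.5 were counted beside all coding genes. Promoter letters came from RefSeq's GRCm38.p6 tables and genome. The genes named were the 8 members, 31 partner genes, markers, neighbours and the 2 likest genes of each member. The members and lists were chosen with earlier results of these data known. With 1 list per condition, no test was run. Python 3.11.15, pandas 2.3.3, pysam 0.24.0 and matplotlib 3.10.9 were used, and scripts were tested on simulated data.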

Additional observations from a re-analysis of the deposited data

How the results depend on the processing

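Counts of caspase genes, and counts of partners marked, gained or lost, were repeated under other settings. Partner differences of 10 points were not. No caspase difference of at least 10 points changed sign. Casp4 with loxapine went from +0.371 to -3.95 points with lists of equal size, and Casp14 in Q7SST from -1.8 to +5.7 with a 5 kb window. Merging nearby peaks, using starts of protein-coding transcripts only and summing widths moved none of these counts. Restricting every list to peaks of at least the pooled median score (47) gave 0 gained in Q7SST, 0 lost with cyproheptadine, DKI and meclizine, 2 lower and 0 changed in width in Q7SST, 0 higher, 1 lower and 0 changed in width with loxapine, and 1 higher with meclizine, and partners lost numbered 3 with cyproheptadine, 1 with loxapine and 2 with DKI. Cutting every list to its strongest 30758 peaks gave 0 gained in Q7SST, 0 lost with cyproheptadine, DKI and meclizine, 1 gained with loxapine, 2 lower and 0 changed in width in Q7SST, 1 lower with cyproheptadine, 2 rather than 3 lower with DKI (Casp8 at -7.83), 0 higher, 1 lower and 0 changed in width with loxapine, and 1 higher with meclizine. Requiring a peak over the start gave 0 gained in Q7SST, 0 lost with cyproheptadine, DKI and meclizine, 0 changed in width in Q7SST and with loxapine, and 0 higher with loxapine, and partners numbered 3 rather than 2 lost in Q7SST, 2 lost with cyproheptadine, and 1 gained and 2 lost with meclizine. A window of 5 kb gave 0 lost in Q7SST and with cyproheptadine, DKI and meclizine, 2 lower in Q7SST, 1 lower with meclizine, 0 changed in width in Q7SST and with loxapine, 1 with DKI, and 1 partner lost with DKI. Ranking peaks among marked coding promoters gave 4 lower in Q7SST, 0 higher and 2 lower with loxapine, and 1 higher and 3 lower with meclizine.

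Many of these shifts were in the weak Casp1 and Casp14 peaks. Casp1 was marked in 0 lists under the score minimum, the equal list size and the peak over the start. Casp14 was marked in 0 lists under the first and last of these, in loxapine alone (percentile 8.61) at equal size, and in all 6 with 5 kb. Casp4 was absent from Q7SST alone in every setting except 5 kb, where the peak inside the gene marked it at 38.9. Its percentiles at equal size were 64.8 in Q111SST, and 84.3 for cyproheptadine, 60.8 for loxapine, 75.0 for meclizine and 86.6 for DKI. Birc3 was marked in the 5 mutant lists alone in each setting, and Aim2 was lost with cyproheptadine under the score minimum. No paired analysis was possible because there was only 1 list per condition. Leaving out a replicate was impossible for the same reason. Depth was unknown, so a peak missing from a list does not show that the mark was absent.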

Other observations

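The part of chromosome 9 around the inflammatory caspases held other genes whose marks differed between the lines, and they were looked up after the caspase values had been seen. Gria4, a glutamate receptor subunit gene upstream of Casp1, was marked in Q7SST alone at percentile 22.1, and Pdgfd, a growth factor gene downstream of Casp12, in Q7SST alone at 74.1. The protease-related gene Ddi1 (7.83) and the matrix metalloproteinase gene Mmp10 (13.2) were also marked in Q7SST alone and weakly. Birc3 was marked in the 5 mutant lists. Its neighbour Birc2, and Dync2h1, Dcun1d5, Tmem123, Yap1, Cfap300 and Cep126, were marked in all 6. Dync2h1 and Dcun1d5 had the same percentile in every list. Mmp13, Mmp12, Mmp1b, Mmp3, Mmp8, Mmp27, Mmp20, Mmp7 and Trpc6 were marked in none. Both directions of difference between the lines were thus present on this part of the chromosome, though not close together. Gria4 lay 502282 bp from Casp1, Pdgfd 795551 bp from Casp12, and Birc3 at chr9:7848699-7873186. Over all coding genes, 2.78% were marked in Q7SST alone and 0.936% in the 5 mutant lists alone. Promoter windows of Birc3, Aim2 and Il18 held 7, 5 and 1 CpG, and of these Il18 was marked in all 6 lists.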
